A study of Mus musculus with 6 samples.

Results

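Mouse embryonic stem cells in which Dnmt1 was knocked down were set directly against the same cells with Dnmt3a knocked down. The members are the autosomal cytosines that have a methylation level in both libraries on the same chromosome, position and strand. There are 390074 of them, out of 614987 with a level in either library (63.4%) and 733073 in any of the study's 6 libraries. The assay was reduced representation bisulfite sequencing (RRBS) of E14 embryonic stem cells, a widely used mouse line. Both groups are the same line and carry a short hairpin RNA (shRNA), against Dnmt1 (shDnmt1) or against Dnmt3a (shDnmt3a). The title of the first sample spells its target Dnmt1a, while its treatment label says Dnmt1. Each group is 1 library, so no difference has a replicate error and none carries a p-value. The remaining transcript or protein of the 2 enzymes was not analysed here, so the depth of each knockdown is unknown.

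DNMT1 is the maintenance methyltransferase: after replication it copies methylation from the old strand of a CpG onto the new one. DNMT3A is a de novo enzyme that methylates CpGs whatever the state of the other strand, and it shares this role with DNMT3B in embryonic stem cells. RRBS cuts DNA at CCGG with MspI, which favours CpG-rich sequence. Bisulfite then turns unmethylated cytosine into uracil, and methylated and hydroxymethylated cytosine are both read as cytosine.

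A yardstick from outside the comparison was used for each cytosine. Its reference level is the mean of 2 other libraries of the study, those with knockdown of Dnmt3b (shDnmt3b) and of Tet1 with Tet2 (shTet1_Tet2). These are themselves treated cells. Cytosines, clusters and promoters with a reference level of at least 50% are called methylated below. A difference is always the shDnmt1 level minus the shDnmt3a level, in percentage points.

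The promoters of 4 germ-cell genes give examples of wide and of narrower differences. Each stretch is written 5′ to 3′ in the direction of its gene, and capitals mark the CpGs with a level in both libraries. The letters are RefSeq's for assembly GRCm38.p6, and the positions are those of the matching cytosines in the files, on mm9. Fkbp6 encodes an immunophilin required for male meiosis, and its stretch lies at chr5:135825840-135825899 on the minus strand. Asz1 encodes a germ-cell protein of the piRNA pathway, and its stretch lies at chr6:18059062-18059182 on the minus strand. Topaz1, a germ-cell gene required for male meiosis, has its stretch at chr9:122656223-122656281 on the plus strand. Tmprss12 encodes a testis serine protease, with its stretch at chr15:100111204-100111262 on the plus strand.
Fkbp6: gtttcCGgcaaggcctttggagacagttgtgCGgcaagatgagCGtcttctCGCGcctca
Asz1: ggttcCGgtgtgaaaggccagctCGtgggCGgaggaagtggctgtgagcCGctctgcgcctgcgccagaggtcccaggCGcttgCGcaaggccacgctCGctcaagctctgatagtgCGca
Topaz1: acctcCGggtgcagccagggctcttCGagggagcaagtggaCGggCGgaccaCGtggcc
Tmprss12: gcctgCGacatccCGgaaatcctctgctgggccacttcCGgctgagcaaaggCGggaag

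In these 4 promoters the single cytosines lay between 1.3% and 37.5% in shDnmt1 and between 11.7% and 94.5% in shDnmt3a. The 7 Fkbp6 cytosines, including 2 past the start, lay between 10.6% and 37.5% in shDnmt1 and between 65.5% and 94.5% in shDnmt3a. The 11 Asz1 cytosines lay between 7% and 19.8% in shDnmt1 and between 37% and 71.7% in shDnmt3a. In both genes the ranges of the libraries did not overlap. The 9 Topaz1 cytosines lay between 9.3% and 24% in shDnmt1 and between 15.7% and 65.7% in shDnmt3a. The 6 Tmprss12 cytosines lay between 1.3% and 20.3% in shDnmt1 and between 11.7% and 34.3% in shDnmt3a. Here the ranges overlapped, although shDnmt1 was the lower library at each of the 15 cytosines of Topaz1 and Tmprss12. The reference levels of the same cytosines ran from 35.9% to 81.3% in Topaz1 and from 30.7% to 69.2% in Tmprss12, so both promoters were below them in both libraries.

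Over all shared cytosines, methylation averaged 5.31% ± 0.41 in shDnmt1 and 21.4% ± 1.36 in shDnmt3a, with the SD taken over the 19 autosomes. The difference was -16.1 ± 0.99 points, and shDnmt1 held 24.8% of the shDnmt3a level. The sign was the same on 19 of 19 autosomes, where the difference ran from -17.4 to -13.6 points. Levels above 80% were found at 486 cytosines in shDnmt1 (0.125%) and at 46960 in shDnmt3a (12.04%). A level of exactly 0 was found at 60.2% of cytosines in shDnmt1 and 54.4% in shDnmt3a, and 50.6% were at 0 in both.

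Counted one by one, 108534 cytosines (27.8%) were at least 20 points lower in shDnmt1, and 123 (0.0315%) were at least 20 points higher. The other 281417 lay within 20 points. Of these, 274330 (97.5%) were below 20% in both libraries. Within 20 points and at least 50% in both were 808 cytosines. The 2 strands of a CpG come from different molecules of 1 library, and their difference holds the errors of both cytosines together with any real difference between strands. Over 1175 methylated CpGs with both strands in both libraries, the plus minus the minus strand had an SD of 16.9 points in shDnmt1 and 10.7 points in shDnmt3a. Of 1108 such CpGs that were at least 20 points lower on the plus strand, 1072 (96.8%) were also at least 20 points lower on the minus strand. This is near the share of all methylated cytosines that were so, 94.8%, and therefore says little about agreement of strands. Pearson's r between the strands of the 1175 CpGs was 0.30 in shDnmt1 and 0.84 in shDnmt3a.

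The shared cytosines under-represent methylated DNA. A further 178933 cytosines had a level in shDnmt3a without one in shDnmt1, and their mean in shDnmt3a was 43.8%. In the opposite direction, 45980 had a level in shDnmt1 alone, with a mean of 3.91%. Depth per cytosine is unknown because the files hold levels without read counts, and whether depth or the level itself sets which cytosines are listed was not tested.

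Methylated cytosines, of which 106573 were shared, separated the libraries most fully. They averaged 17.1% ± 0.88 in shDnmt1 and 71.6% ± 1.62 in shDnmt3a (SD over autosomes), a difference of -54.4 ± 0.87 points. The middle 90% of cytosines ran from 2.3% to 38.5% in shDnmt1, with a median of 14.9%. In shDnmt3a they ran from 31.5% to 93.9%, with a median of 77.1%. The ranges overlapped only between 31.5% and 38.5%, and 94.8% of methylated cytosines were at least 20 points lower in shDnmt1.

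**Figure D1:**
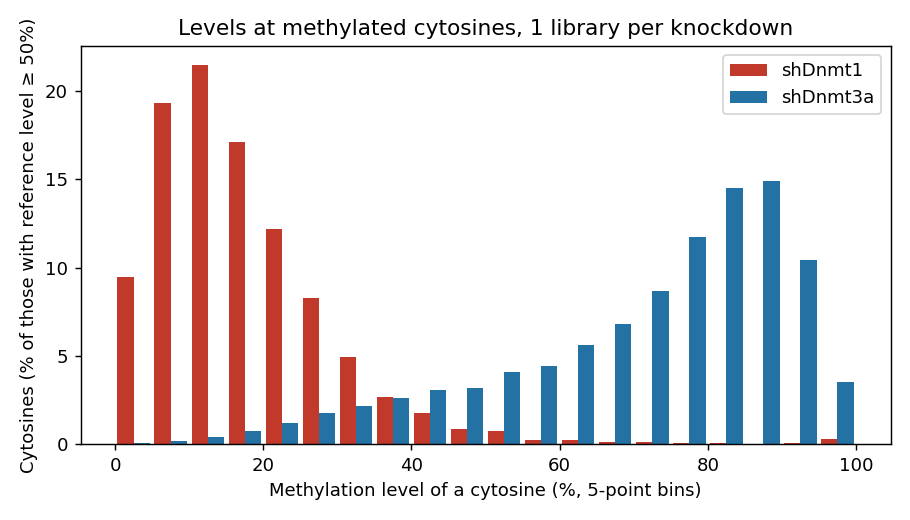
Share of methylated cytosines (reference level of at least 50%, y axis, percent) in 5-point bins of methylation level (x axis, percent), for the shDnmt1 library and the shDnmt3a library. The shDnmt1 bars peak at 10% to 15% with 21.5% of the cytosines, and the shDnmt3a bars peak at 85% to 90% with 14.9%.

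The distance between the libraries was widest at a reference level of 90% to 95%. There shDnmt1 averaged 22.1% ± 0.48 and shDnmt3a 84.9% ± 0.55 (SD over autosomes), which differ by -62.8 ± 0.46 points. At 20% to 30% the values were 3.95% in shDnmt1 and 9.98% in shDnmt3a, a difference of -6.04 points. At 5% to 10% they were 1.30% and 2.09%, still 0.79 points apart. Cytosines with a reference level of 0 were at 0.057% in shDnmt1 and 0.064% in shDnmt3a.

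The 2 knockdowns kept different shares of the reference level, and the shares depended on it in different ways. In shDnmt1 the share was 18.02% at a reference level of 5% to 10% and 14.9% at 50% to 60%. It was 18.5% at 80% to 90% and 32.0% in the top bin of 95% to 100%. In shDnmt3a the share was 29.0% at 5% to 10%, 59.6% at 50% to 60% and 91.9% in the top bin. So the relative distance was widest in the bin of 70% to 80%, where shDnmt1 held 19.99% of the shDnmt3a level, with 11.9% in shDnmt1 and 59.4% in shDnmt3a. It was narrower on both sides, with shDnmt1 at 50.2% of the shDnmt3a level in the bin of 10% to 20% and at 34.8% in the top bin.

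**Figure D2:**
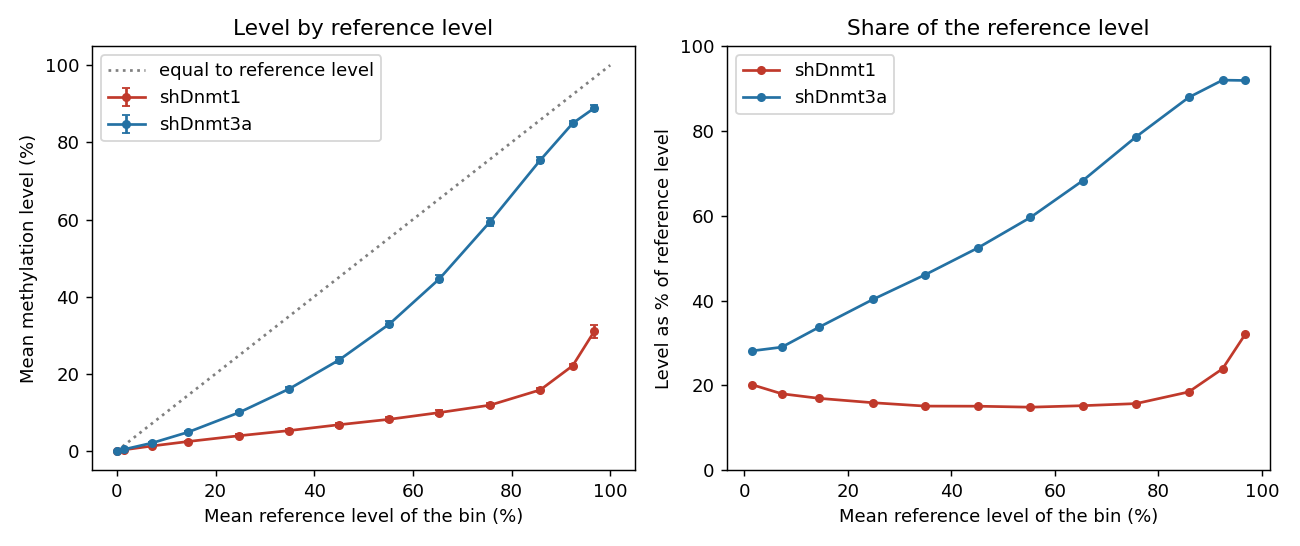
Left, mean methylation level (y axis, percent) of shDnmt1 and shDnmt3a in bins of reference level (x axis, percent), with bars for the SD over 19 autosomes. Right, the same means as a percent of the reference level, where shDnmt1 stays near 15% to 18% over most bins and shDnmt3a climbs to 91.9%.

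At the upper end a small set of cytosines read high in both knockdowns. In all, 507 cytosines were at 80% or more in shDnmt1, and 478 of them were at 80% or more in shDnmt3a too. Both libraries read 100% at 280 of these, and all 6 libraries of the study read 100% at 241, spread over the 19 autosomes. Whether a reading of 100% in every library is methylation was not tested. Among the 781 cytosines with a reference level of 100%, shDnmt1 was split: 425 were below 40%, 278 at 80% or more and 78 in between. Their mean was 51.3% in shDnmt1 and 91.4% in shDnmt3a. The 431 shared neighbours within 100 bp of cytosines at 80% or more in both libraries averaged 47.2% in shDnmt1 and 75.5% in shDnmt3a. All methylated cytosines averaged 17.1% in shDnmt1 and 71.6% in shDnmt3a. The neighbours thus averaged below 80%, but well above methylated cytosines at large in shDnmt1.

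Sequence around the CpG moved the distance by a few points. All values here are standardised to the same mix of reference levels, and the SD is over autosomes. At MspI sites (CCGG) methylated cytosines averaged 16.8% ± 0.29 in shDnmt1 and 72.9% ± 0.50 in shDnmt3a. At other CpGs they averaged 17.5% ± 0.79 in shDnmt1 and 70.2% ± 0.73 in shDnmt3a. RRBS fragments end at MspI sites, so the place in the fragment and the sequence of CCGG cytosines cannot be told apart.

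Outside MspI sites, levels differed with the base before the CpG. With G before the CpG, the means were 14.9% ± 0.93 in shDnmt1 and 69.3% ± 0.73 in shDnmt3a, 54.4 points apart. With C before it they were 19.3% ± 0.75 in shDnmt1 and 69.6% ± 0.72 in shDnmt3a, 50.4 points apart. The libraries were nearest with A before it, at 18.4% ± 1.22 in shDnmt1 and 68.3% ± 1.15 in shDnmt3a, 49.9 points apart. Across the 4-base sites, shDnmt1 held between 20.4% of the shDnmt3a level at GCGG and 30.4% at CCGC. The smallest absolute difference was at ACGT, with 18.5% ± 2.26 in shDnmt1 and 66.0% ± 1.97 in shDnmt3a. ACGT had the lowest shDnmt3a mean of the 15 sites that are not CCGG.

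Where CpGs stood closer together the libraries came nearer. With 1 to 2 listed CpGs within 100 bp, the standardised means were 16.2% ± 0.35 in shDnmt1 and 73.0% ± 0.48 in shDnmt3a, a difference of -56.8 points. With 7 to 10 they were 18.3% ± 1.43 in shDnmt1 and 68.5% ± 1.13 in shDnmt3a, a difference of -50.2 points. Both libraries moved: the shDnmt1 mean was higher and the shDnmt3a mean lower where CpGs were dense, and the shDnmt3a mean by the wider margin.

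Cytosines were next joined into clusters of at least 5 shared cytosines that lie at most 100 bp apart. This gave 23545 clusters, and the median cluster held 9 cytosines and spanned 125 bp. In 17122 of them (72.7%) both libraries averaged below 5%. Clusters at least 40 points lower in shDnmt1, with at least 80% of their cytosines lower, numbered 3556 (15.1%). Clusters at least 10 points higher in shDnmt1, with at least 80% of cytosines higher, numbered 4 (0.017%). The 4486 methylated clusters averaged 17.98% ± 9.9 in shDnmt1 and 68.4% ± 18.9 in shDnmt3a (SD over clusters), and 3399 of them (75.8%) were at least 40 points lower.

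The furthest clusters were nearly emptied in shDnmt1 and full in shDnmt3a. The widest difference was at chr15:59025149-59025277, with 9.02% in shDnmt1 and 93.5% in shDnmt3a. The next was chr15:31511719-31511815, with 9.48% in shDnmt1 and 92.9% in shDnmt3a. After it came chr11:32129858-32129891 with 8.80% in shDnmt1 and 92.0% in shDnmt3a. The other two, chr14:40871579-40871622 and chr17:17123808-17123963, had 11.3% and 6.68% in shDnmt1 and 94.5% and 88.4% in shDnmt3a. All 5 held only 5 to 7 shared cytosines, and clusters picked for an extreme difference overstate what a repeat would give. The strands offer a partial repeat within the library. This used the 1383 methylated clusters with 3 or more cytosines on each strand. Of these, 967 were at least 40 points lower on the plus strand, and 844 of the 967 (87.3%) were so on the minus strand. The share of all 1383 that were so on the minus strand was not counted. Their median difference there was -51.5 points, so most were that low in any case. The 87.3% therefore says little about agreement of strands.

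Nearness at methylated clusters was rare. Only 53 of the 4486 (1.18%) had means within 10 points, and they were of 2 kinds. In 32 clusters both libraries were below 40%, with means of 12.9% in shDnmt1 and 19.9% in shDnmt3a against a reference level of 54.8%: both knockdowns were low. The combined knockdown of Dnmt3a and Dnmt3b, which had no part in picking the clusters, averaged 31.9% there. The clusters were picked for nearness in shDnmt1 and shDnmt3a, so their low shDnmt3a mean cannot be compared with that value. In 18 clusters both libraries were at 40% or more, with means of 63.2% in shDnmt1 and 65.5% in shDnmt3a against a reference level of 72.3%: both knockdowns were high. The remaining 3 had 1 library on each side of 40%.

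Examples of both kinds stand among the 5 smallest differences. The cluster at chr4:135454527-135454639 was low in both, with 13.9% in shDnmt1 and 13.4% in shDnmt3a (reference level 50.6%). Its strands went opposite ways. The plus strand had 17.65% in shDnmt1 and 3.5% in shDnmt3a, and the minus strand 11.3% in shDnmt1 and 20% in shDnmt3a. Low levels were also found at chr2:165893077-165893193, with 22.0% in shDnmt1 and 23.7% in shDnmt3a (reference level 51.7%). The cluster at chr6:65211180-65211223 was high in both, with 74.8% in shDnmt1 and 73.5% in shDnmt3a (reference level 70.2%). Between them lay chr17:3044121-3044169, with 43.3% in shDnmt1 and 44.8% in shDnmt3a, and chr5:92115758-92115914, with 39.2% in shDnmt1 and 40.6% in shDnmt3a. Near clusters were also read on the other strand. They are a far smaller share of the 1383 than far clusters are, so the strand shares of near and far clusters cannot be compared. Of 95 methylated clusters within 20 points on the plus strand, 35 were within 20 points on the minus strand, where the median difference of the 95 was -23.6 points, against -51.5 points for all 1383.

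The shDnmt1 mean exceeded the shDnmt3a mean at 8 methylated clusters. The largest excess was at chr3:54615277-54615318, where 8 cytosines of the minus strand averaged 78.8% in shDnmt1 and 59.5% in shDnmt3a. The next were chr18:17598594-17598637 with 56.1% in shDnmt1 and 48.2% in shDnmt3a, and chr1:45223035-45223078 with 63.6% in shDnmt1 and 58.2% in shDnmt3a. In this chr1 cluster shDnmt1 was nevertheless lower at 3 cytosines and higher at 2. At chr11:38722959-38723002 and chr1:194295386-194295429 the excess was 4.18 and 2.74 points, and each of these last 4 clusters held 5 cytosines of 1 strand.

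**Figure D3:**
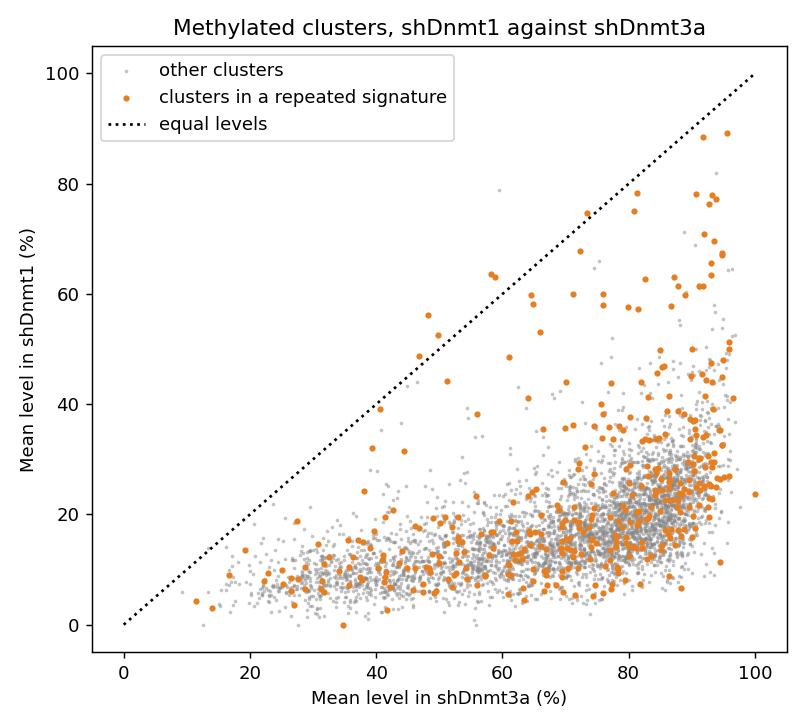
Each point is 1 of the 4486 methylated clusters, with its mean level in shDnmt3a (x axis, percent) against its mean level in shDnmt1 (y axis, percent). Orange points hold a cytosine of a repeated signature, and these make up 14 of the 18 clusters that lie within 10 points of each other at 40% or more in both libraries.

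The near clusters that were high in both libraries often lay in repeated sequence. A run of 3 successive cytosines of 1 strand, with its 5-base contexts and spacing, forms a signature, and a signature seen at 10 or more places was called repeated. This description was chosen after the data had been seen. A repeated signature was present in 14 of the 18 near clusters that were high in both libraries (77.8%), in 5 of the 32 that were low in both (15.6%) and in 388 of all 4486 methylated clusters (8.65%). The 18 were short, with a median length of 44 bp, while all methylated clusters had a median of 123 bp. Of the 507 cytosines at 80% or more in shDnmt1, 19.9% lay in a repeated signature, against 2.35% of all methylated cytosines.

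The level in shDnmt1 was higher the more places a signature had. Standardised for reference level, methylated cytosines whose signature had 1 place averaged 17.5% ± 0.57 in shDnmt1 and 69.9% ± 0.54 in shDnmt3a (SD over autosomes). With 10 to 49 places the means were 22.2% ± 2.73 in shDnmt1 and 73.9% ± 2.31 in shDnmt3a. With 50 or more places they were 27.5% ± 6.49 in shDnmt1 and 74.7% ± 3.83 in shDnmt3a. Hence shDnmt1 held 25.1% of the shDnmt3a level at 1 place and 36.8% at 50 or more. Whether reads of like places were assigned to the right copy was not tested.

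The repeated signatures differed widely from each other. Of 34 repeated signatures with at least 20 shared cytosines and a mean reference level of at least 50%, none averaged higher in shDnmt1, and the difference ran from -71.6 to -15.6 points with a median of -46.1. The signatures at both ends of that range are written below over the cytosines that recur around them, in lower case with the CpGs in capitals and n for bases that the files do not give. The letters come from the contexts in the files, from 72 of the 76 places of the nearest one and from all 12 of the furthest.
nearest signature: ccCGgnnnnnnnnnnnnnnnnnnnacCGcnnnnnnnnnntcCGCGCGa
furthest signature: ccCGgnnnnnnnnnnccCGaaaCGg

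The nearest signature spans 48 bases with 5 CpGs and was found at 76 autosomal places on 18 chromosomes. Its 265 shared cytosines averaged 32.7% in shDnmt1 and 47.6% in shDnmt3a, with a reference level of 58.8%. By CpG, in the written order, shDnmt1 averaged 22.0%, 35.6%, 43.0%, 31.0% and 30.004%. In the same order shDnmt3a averaged 38.3%, 48.3%, 59.2%, 44.0% and 46.6%. Thus the third CpG, at TCCGC, was the most methylated and the first, at the MspI site, the least methylated in both libraries. The furthest signature spans 25 bases and was found at 12 autosomal places (14 with other chromosomes), where its 23 shared cytosines averaged 16.1% in shDnmt1 and 87.8% in shDnmt3a.

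Places of the nearest signature differed widely from each other. At 56 of them at least 3 of its cytosines were shared. Of these 56 places, 28 were within 10 points, 10 were lower in shDnmt1 by between 10 and 20 points and 18 were at least 20 points lower. The 10 places that were higher in shDnmt1 are among the 28, with an excess of at most 7.94 points. Among the 35 methylated places, shDnmt1 averaged 44.8% ± 22.7 and shDnmt3a 65.3% ± 20.3 (SD over places), with 12 within 10 points and 17 at least 20 points lower. At chr14:124192504-124192547 the levels were 78.3% in shDnmt1 and 81.2% in shDnmt3a, while at chr1:140768506-140768549 they were 31.9% in shDnmt1 and 91.1% in shDnmt3a. The signature was in 10 of the 53 near clusters, 8 of them among the 18 that were high in both libraries. Its share of all methylated clusters was not counted. Because the signature was picked for its small difference, its presence in near clusters is partly built in.

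**Figure D4:**
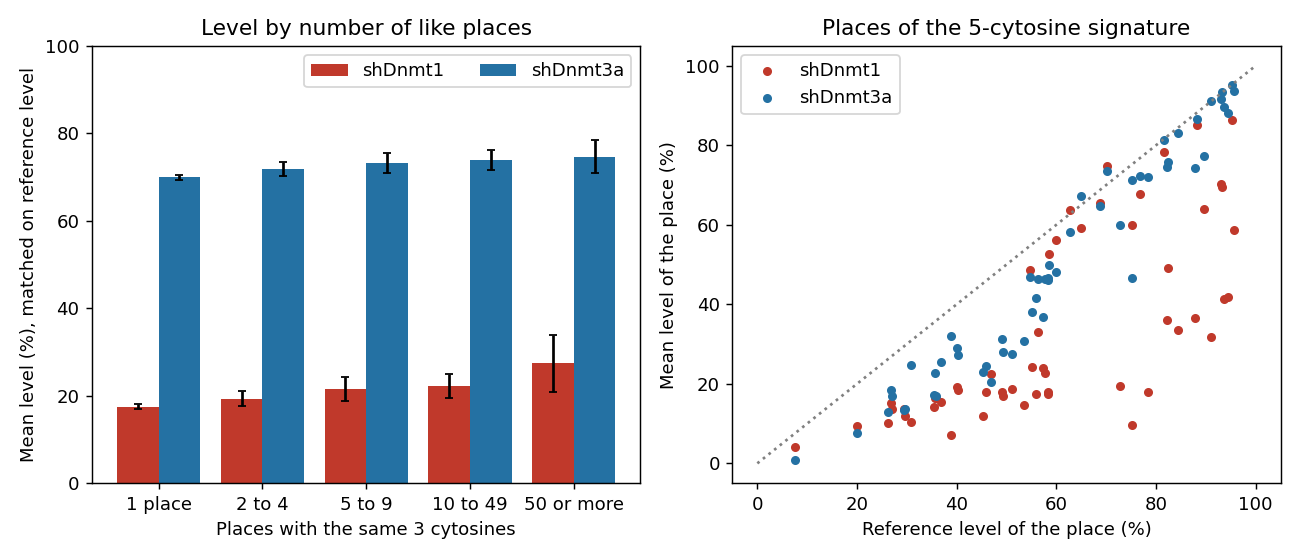
Left, mean level of methylated cytosines (y axis, percent, standardised to the same mix of reference levels) by the number of places with the same 3-cytosine signature (x axis), for shDnmt1 and shDnmt3a, with bars for the SD over autosomes. Right, each of the 55 places of the nearest signature with at least 3 shared cytosines and a reference level, by its reference level (x axis, percent) and its mean level in shDnmt1 and in shDnmt3a (y axis, percent), where the dotted line marks equality with the reference level and shDnmt1 ranges from 4.2% to 86.4%.

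The 123 cytosines that were at least 20 points higher in shDnmt1 lay on 18 autosomes. Of these, 33 lay in 3 stretches and 90 outside them, and 99 had a shDnmt3a level below 20%. The largest group, 23 cytosines at chr17:39983980-39985134, averaged 55.9% in shDnmt1 and 1.78% in shDnmt3a. All 93 shared cytosines of that stretch averaged 17.4% in shDnmt1 and 5.88% in shDnmt3a. At chr9:3258831-3258883, 6 of 6 shared cytosines were higher, with means of 81.8% in shDnmt1 and 0.50% in shDnmt3a. The control library, which had no part in choosing these cytosines, averaged 44.8% at the 23 and 79.95% at the 6. The shDnmt3b and shTet1_Tet2 libraries and the combined knockdown of Dnmt3a and Dnmt3b lay between 0% and 3.33% at both spots. The reads behind these 2 spots were not examined. The third stretch was the cluster on chromosome 3 described above, with 4 cytosines. The other two clusters that passed the rule for higher clusters were chr7:133972696-133972796, with 17.1% in shDnmt1 and 2.52% in shDnmt3a, and chr13:34838928-34838969, with 13.4% in shDnmt1 and 3.03% in shDnmt3a.

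Promoters were mostly unmethylated in both knockdowns. A promoter here is the 300 bases around a RefSeq start site, 250 before it and 50 after, found in the files by the contexts and spacing of its CpGs. Of 4349 autosomal genes with at least 5 shared cytosines in such a promoter, 4238 (97.4%) were below 5% in both libraries. At least 20 points lower in shDnmt1 were 41 promoters (0.943%), at least 5 points lower were 83 (1.91%), and 0 were at least 20 points higher. The 39 methylated promoters averaged 13.7% ± 5.9 in shDnmt1 and 57.0% ± 19.3 in shDnmt3a (SD over promoters), and 36 of the 39 were at least 20 points lower. The shDnmt1 means ran from 4.08% to 29.0% and the shDnmt3a means from 21.5% to 87.0%. The narrower range of shDnmt1 in points goes with its lower mean. The 4 printed promoters are among these 39.

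The 8 promoters furthest apart were full in shDnmt3a, at 70.7% or more, and at 22.7% or less in shDnmt1. Itpr3os, an antisense transcript, had the widest difference with 7.30% in shDnmt1 and 81.1% in shDnmt3a. Il12a, which encodes a subunit of interleukin 12, had 11.9% in shDnmt1 and 83.0% in shDnmt3a. Dao, the gene of D-amino acid oxidase, had 19.04% in shDnmt1 and 86.5% in shDnmt3a. Vmn2r29, a vomeronasal receptor gene, had 5.24% in shDnmt1 and 70.7% in shDnmt3a, and Serpinb9c, a serine protease inhibitor gene, had 9.64% in shDnmt1 and 71.7% in shDnmt3a. The remaining 3, Gm41358, 1700094J05Rik and LOC108167659, lay between 12.4% and 22.7% in shDnmt1 and between 79.0% and 87.0% in shDnmt3a. Each of the 8 rests on 5 or 6 cytosines. Acta1, the skeletal muscle actin gene, is outside this set but was the methylated promoter with the second lowest shDnmt1 level, at 4.98%, against 60.1% in shDnmt3a; it was picked after its values were seen.

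The methylated promoters with the smallest differences, 9 because the last 2 were tied, had low to middle levels in both libraries. After the Tmprss12 promoter, with means of 11.3% in shDnmt1 and 21.5% in shDnmt3a, came Zfp629, a zinc finger gene, with 13.5% in shDnmt1 and 28.3% in shDnmt3a. Topaz1 had 15.8% in shDnmt1 and 32.5% in shDnmt3a. Smarca5, which encodes a chromatin remodelling ATPase, had 22.6% in shDnmt1 and 42.6% in shDnmt3a, while Plut, a non-coding transcript, had 12.2% in shDnmt1 and 32.6% in shDnmt3a. Slc25a31, the ADP/ATP carrier of the testis, had 8.28% in shDnmt1 and 34.0% in shDnmt3a, and Gm52707 had 7.66% in shDnmt1 and 33.6% in shDnmt3a. Btbd18, which acts in piRNA production in the testis, and Ctnnd1, the gene of catenin delta 1, face each other across the same 10 cytosines, with 12.01% in shDnmt1 and 39.1% in shDnmt3a. The Smarca5 promoter had the highest reference level of the 9, at 76.7%.

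Promoters of germline genes are known as CpG-rich promoters that DNA methylation keeps silent outside germ cells. The germline list has 55 genes, of which 12 had a promoter value. Of these 12, 5 were at least 20 points lower in shDnmt1 and 10 at least 5 points lower, next to 0.943% and 1.91% of all promoters. Their median was 7.53% in shDnmt1 and 20.6% in shDnmt3a, and the median difference was -15.7 points, where that of all 4349 promoters was 0. All promoters are an unlike yardstick. Of the 12, 11 had a reference level of at least 20%, while 92.9% of all promoters were below 5%. The 5 past 20 points are methylated promoters, of which 36 of 39 were that much lower. Members were picked for the list from textbook knowledge with earlier results of these data known, so the counts describe the list alone.

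The 5 germline promoters past 20 points had the same order by level in both libraries. Tex101, a sperm surface glycoprotein gene, had 21.3% in shDnmt1 and 77.4% in shDnmt3a. Fkbp6 had means of 19.01% in shDnmt1 and 76.5% in shDnmt3a. Dazl, which encodes an RNA-binding protein of germ cells, had 18.7% in shDnmt1 and 66.8% in shDnmt3a. Asz1 had 12.3% in shDnmt1 and 50.3% in shDnmt3a. The fifth was Slc25a31, given above.

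The other 7 germline promoters had reference levels below 50%. Ddx4, the germ-cell RNA helicase gene, had 2.51% in shDnmt1 and 18.2% in shDnmt3a. Hormad1, which acts on meiotic chromosome axes, had 7.37% in shDnmt1 and 23.0% in shDnmt3a. Mael, a gene of transposon control in germ cells, had 7.70% in shDnmt1 and 14.0% in shDnmt3a. Dmrtb1, Hsf5 and Hormad2 lay between 1.52% and 6.63% in shDnmt1 and between 6.38% and 15.9% in shDnmt3a. Tdrd5 was at 0 in both libraries, with 17 shared cytosines.

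**Figure D5:**
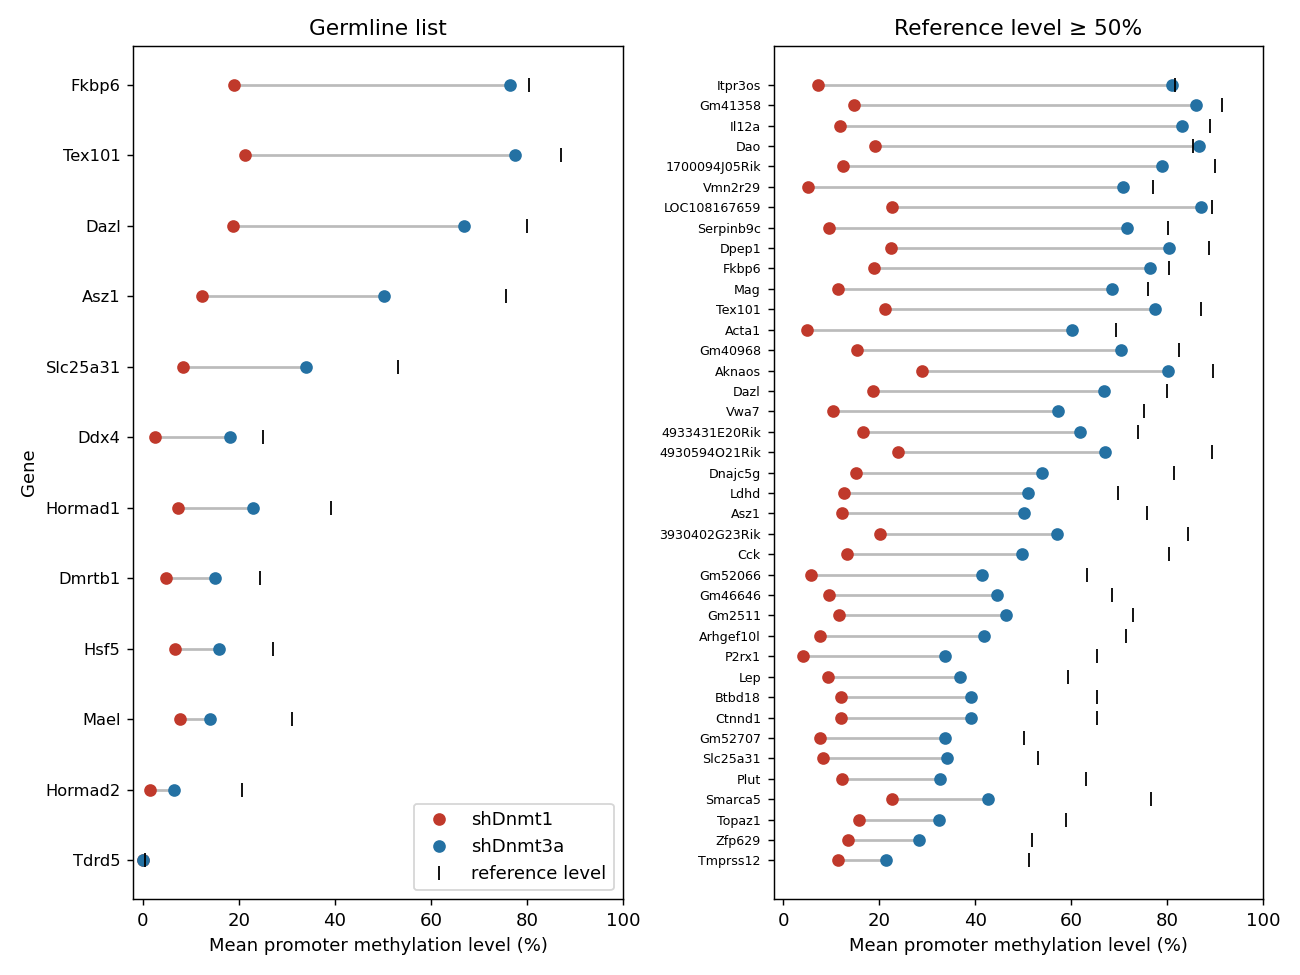
Mean promoter level (x axis, percent) in shDnmt1 and shDnmt3a for the 12 measured genes of the germline list (left) and for the 39 methylated promoters (right), sorted by difference, with a tick for the reference level. The shDnmt1 points of the right panel stay between 4.08% and 29.0%, while the shDnmt3a points spread from 21.5% to 87.0%.

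Of the imprinted list 6 of 39 genes had a value, and 2 of these were at least 20 points lower in shDnmt1. Among all promoters 0.943% were that much lower, which is an unlike yardstick. Only 2 of the 6 had a reference level of at least 20%, and they are the same 2. The count thus describes the list alone. One was Fkbp6, which stands on this list too. The other was Commd1, a gene that holds an imprinted locus in an intron, with 12.7% in shDnmt1 and 43.3% in shDnmt3a (reference level 46.9%). Zim1, a zinc finger gene, had 0.74% in shDnmt1 and 1.31% in shDnmt3a, and Dio3, a thyroid hormone deiodinase gene, was at 0 in both. The other 4 imprinted genes, Zim1 and Dio3 included, differed by less than 1 point.

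The remaining lists gave no promoter with a difference of 5 points. Among all 4349 promoters 1.91% were at least 5 points lower. None of these lists had a measured promoter with a reference level of at least 20%. With so few measured members, the lack of differences is near the share of all promoters and is no trait of these lists. Lineage genes had a value for 6 of 40, with Foxa2, a transcription factor gene of endoderm, at 1.92% in shDnmt1 and 2.94% in shDnmt3a. Hoxa5 and Gata2, which encode transcription factors of axial patterning and of blood, had 0 and 0.29% in shDnmt1 and 2.46% and 2.78% in shDnmt3a. Isl1, Hoxd10 and Neurog1 were at 0 in shDnmt1 and at most 0.68% in shDnmt3a. Pluripotency genes had a value for 2 of 26, Sox2 with 0.042% in shDnmt1 and 0.15% in shDnmt3a, and Fgf4 at 0 in both. The trophoblast and 2-cell list had a value for 1 of 23, Ascl2, with 0.18% in shDnmt1 and 0.66% in shDnmt3a. Of 26 genes of the methylation machinery 9 had a value, and all 9 were at 0.1% or less in both libraries. They included Dnmt1 itself, at 0.019% in shDnmt1 and 0 in shDnmt3a, and Uhrf2, a relative of the DNMT1 partner UHRF1, at 0 in shDnmt1 and 0.1% in shDnmt3a. Setdb1, a histone methyltransferase gene, was at 0 in both, and Zbtb38, a gene of a methyl-CpG binding protein, at 0.027% in both. The 9 measured housekeeping promoters of 26 were at 0 in shDnmt1, with at most 0.062% in shDnmt3a.

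The distance was also read along the chromosomes. In 495 windows of 5 Mb with at least 30 methylated cytosines, shDnmt1 ran from 11.0% to 34.7% with a median of 17.6%. In the same windows shDnmt3a ran from 48.2% to 84.4% with a median of 73.7%. The difference lay between -67.7 and -37.2 points, and 0 windows were higher in shDnmt1. The middle 90% of windows lay between -61.3 and -50.7 points. Set against cytosines of like reference level, the excess of a window on the plus strand went with that on the minus strand with Pearson's r of 0.24 in shDnmt1 and 0.62 in shDnmt3a. The window with the most methylation in shDnmt1 was the first 5 Mb of chromosome 9, with 34.7% in shDnmt1 and 80.4% in shDnmt3a over 366 cytosines. Its shDnmt1 mean was 17.5 points above that of cytosines of like reference level, by 22.5 points on the plus strand and 16.6 on the minus strand. Second was chr2:95000001-100000000, with 31.7% in shDnmt1 and 79.3% in shDnmt3a over 86 cytosines. The smallest difference was in the last window of chromosome 19, where the levels were 11.0% in shDnmt1 and 48.2% in shDnmt3a and the reference level was 68.4%.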

How the data were processed

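Genomic DNA was cut with MspI, bisulfite converted and sequenced, per the labels' protocols; CASAVA 1.8, Bismark 0.10.1 and mm9 are named in the submitters' processing notes. The deposited values are methylation fractions from 0 to 1 per CpG cytosine, with 5 bases of context and strand, given by the authors to 3 decimals. They come without counts or coverage, so depth is unknown, no interval can be given and thinly covered cytosines weigh as much as deeply covered ones. The libraries hold 444949 (shDnmt1) and 582942 (shDnmt3a) levels. Fractions were multiplied into percent and joined by chromosome, position and strand (Python 3.11.15, pandas 2.3.3, NumPy 2.4.6, matplotlib 3.10.9).

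Of 32851 RefSeq promoter windows, 7346 were kept: the CpG contexts and spacing had to match the files' mm9 positions at 1 place only, at 5 or more cytosines and without a mismatch, with neighbours equally spaced within 200 bp. No coordinates were converted between builds. Where a gene had several windows, the one with most shared cytosines was used.

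Standardised means weight bins of reference level alike. Cluster calling, placement and standardising were tested on simulated data. With 1 library per group no test was made. The named clusters are the 5 most negative, 5 nearest and 5 most positive among methylated ones. The named promoters are the 8 furthest and 8 nearest among methylated ones (9 with a tie), and the 4 with the highest reference level in each list. Members, lists and rules were chosen with earlier results of these data known. Alternatives were other thresholds, cluster rules, strands, reference libraries and cytosine sets. A planned weighting by coverage needs counts and was not run.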

Additional observations from a re-analysis of the deposited data

Results flagged for a closer look

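Mitochondrial DNA, which the comparison left out, gave a level above that of the control library in both knockdowns. Over 101 mitochondrial cytosines with a level in control as well, the mean was 0.0614% in shDnmt1 and 0.0257% in shDnmt3a, with 0 in control. It came from 3 cytosines above 0 in shDnmt1, the highest at 3.3%, and from 2 in shDnmt3a, the highest at 1.4%.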

How the results depend on the processing

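No mean difference changed sign under the alternatives run, and 16 of 29 alternatives left a mean within its spread or a count within 1.5 times its value. The mean difference of -16.1 points was -54.4 over cytosines with a reference level of at least 50%. Cytosines higher in shDnmt1 numbered 751 at 10 points and 28 at 40 points, in place of 123 at 20 points. The difference at 90% to 95% reference was -62.1 with shTet1_Tet2 alone as reference, and that at 20% to 30% was -7.09 with shDnmt3b alone. With at least 3 cytosines per cluster, 11585 clusters were far, 145 near and 17 higher. With at least 10 cytosines these counts were 201, 3 and 0, and a gap of 50 bp gave 2053 far clusters. These rules form more or fewer clusters by construction. With at least 10 cytosines per promoter, 6 of 2233 promoters were at least 20 points lower, in place of 41 of 4349. No paired analysis was possible because each group is 1 library, and for the same reason no replicate could be left out. The unknown depth limits single cytosines most, and culture, shRNA and library preparation cannot be told apart from the knockdown.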

Other observations

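Outside the autosomes, chromosome X averaged 6.30% in shDnmt1 and 24.3% in shDnmt3a over 7130 cytosines also listed in control, where it was 27.7%. On chromosome Y 31 such cytosines averaged 19.06% in shDnmt1 and 72.3% in shDnmt3a, with 81.9% in control. On sequence not placed on a chromosome 698 cytosines averaged 16.2% in shDnmt1 and 50.3% in shDnmt3a, with 53.9% in control.

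Among methylated clusters of like reference level, the levels in shDnmt1 and shDnmt3a went together weakly. Over 5 bins of reference level from 50% up, each with 374 to 1855 clusters, Pearson's r lay between 0.28 and 0.41; clusters in a bin still differ in reference level, CpG content and depth. In another set, 1383 methylated clusters of all these reference levels with 3 or more cytosines on both strands, r between the strands was 0.27 in shDnmt1 and 0.80 in shDnmt3a. The shDnmt1 levels thus went together no more closely between strands than with shDnmt3a. Whether error in the shDnmt1 levels lowers the r between libraries was not tested.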
